A study of Mus musculus with 20 samples.

Results

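Plakoglobin (Jup), desmoplakin (Dsp), Cx43 (connexin gene Gja1), Cx40 (connexin gene Gja5), N-cadherin (Cdh2), β-catenin (Ctnnb1) and αE-catenin (Ctnna1) are 7 genes of cell junctions in heart muscle. They are 7 of 8251 genes that the array's annotation names. All 10 probe sets that the platform annotation gives to these symbols were taken, of 12422 on the array besides its control probe sets, and 8 of the 10 passed the intensity filter, as did 8097 probe sets in all. The question was whether plakoglobin transcript moved with the other junction genes over a TCDD dose series.

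The arrays measured total RNA of whole mouse hearts at gestation day 17.5. There were 8 control arrays, from dams given corn oil, the vehicle, and 4 arrays at each of 1.5, 3 and 6 µg/kg TCDD, a dioxin that binds the aryl hydrocarbon receptor (AhR). Oral gavage on day 14.5 is the labelled exposure of 19 arrays, and array 1 at 1.5 µg/kg has its day written in another form. The labels give no strain, and they do not tell a single heart from pooled hearts or 1 litter from another, so each p below reflects the scatter among these arrays, which may be technical.

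The intercalated disc joins heart muscle cells end to end. Its adherens junctions tie the actin filaments of neighbouring cells together through N-cadherin and the catenins, its desmosomes anchor desmin filaments through plakoglobin and desmoplakin, and its gap junctions, made of connexins, pass electrical current. Plakoglobin, also called γ-catenin, is a close relative of β-catenin and sits in both the desmosome and the adherens junction, while β-catenin also carries the canonical Wnt signal to the nucleus.

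Median signals of the arrays lay between 171 and 210.4, and array pairs correlated at 0.941 to 0.981 over probe sets. The summed signal of 9 cardiomyocyte marker genes on the array was 137589 to 151856 in controls and 117048 to 169030 at the doses, so the labelled tissue carried its defining transcripts. Cyp1a1 and Cyp1b1, textbook AhR targets, checked the exposure labels. The log2 change of 1 Cyp1a1 probe set was 1.76, 2.12 and 2.93 at 1.5, 3 and 6 µg/kg, and that of Cyp1b1 was 1.39, 1.45 and 2.04 (highest limma adjusted p = 0.00681). The other Cyp1a1 probe set did not pass (log2 changes −0.13, −0.44 and 0.18). In whole hearts, fewer cells of a type and less RNA per cell cannot be told apart. The β-actin 3′ to middle log2 ratio, a sign of RNA or labelling quality, was 0.896 or more in controls 1, 2 and 6 and in array 4 at 6 µg/kg, and 0.61 or less in the other arrays.

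Jup transcript was higher at 1.5 µg/kg than in controls. Its mean at 3 µg/kg lay between those groups, and at 6 µg/kg the arrays overlapped the controls. Jup (chromosome 11, 100368856 to 100397839 of GRCm38.p6) has 1 probe set, whose signal in controls was lowest at 806, median 1058 and highest at 1290. At 1.5 µg/kg the 4 arrays gave 2347, 1862, 1468 and 1525. At 3 µg/kg they gave 1209, 1460.1, 1718 and 1594, and at 6 µg/kg 1304, 1255.5, 1392 and 709. Every array at 1.5 µg/kg lay above all 8 controls, as did 3 of 4 arrays at 3 µg/kg and 2 of 4 at 6 µg/kg, where array 4 lay below all controls. Of all kept probe sets, 1.46%, 0.543% and 0.852% had all 4 arrays outside the control range at 1.5, 3 and 6 µg/kg, in either direction.

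Mean Jup signal was 1023 ± 169.8 in controls (SD, n = 8), and from the low to the high dose it was 1801 ± 404, 1495 ± 218 and 1165 ± 309 (SD, n = 4 each). On the log2(signal + 32) scale it rose by 0.79 at 1.5 µg/kg (SE 0.16, limma adjusted p = 0.0388). Of 8097 probe sets, 17 (0.21%) were called at that dose and 16 (0.198%) were called higher, and Jup ranked 36th by size among the rises of all kept probe sets. The log2 difference was 0.54 at 3 µg/kg (adjusted p = 0.643, unadjusted p = 0.00308), where 0.0247% of probe sets were called, and 0.15 at 6 µg/kg (adjusted p = 0.786), where 0.0741% were called. Without array 4 at 6 µg/kg, the lowest of all 20 for Jup, the last value was 0.37 (adjusted p = 0.292), and without array 3 it was 0.06. Jup was the 1 member called at 1.5 µg/kg, and no member was called at 3 or 6 µg/kg by limma. Of the 8 member probe sets, 2, 2 and 1 had an unadjusted p under 0.05 by rising dose. The shares over all kept probe sets were 12.6%, 5.72% and 9.15%.

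The Jup call stood near the threshold. Over 20 fits that each left out 1 array its log2 change at 1.5 µg/kg was 0.65 to 0.88, and the call was lost in 11 of them: without control 1, 2, 3, 5, 6 or 7, array 1 or 2 at 1.5 µg/kg, array 2 or 4 at 3 µg/kg, or array 2 at 6 µg/kg (adjusted p 0.0501 to 0.249). It was also lost in 6 of 14 other settings (highest adjusted p = 0.141), with a log2 change of 0.68 to 1.06 over the 14. Of the 6, the replicate block and controls 1 to 4 alone gave the same change (0.86) and are not separate checks of it. With the 4 high β-actin arrays left out the change was 0.70 (adjusted p = 0.0304), and with that ratio as a covariate it was 0.68 (adjusted p = 0.0526).

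**Figure D1:**
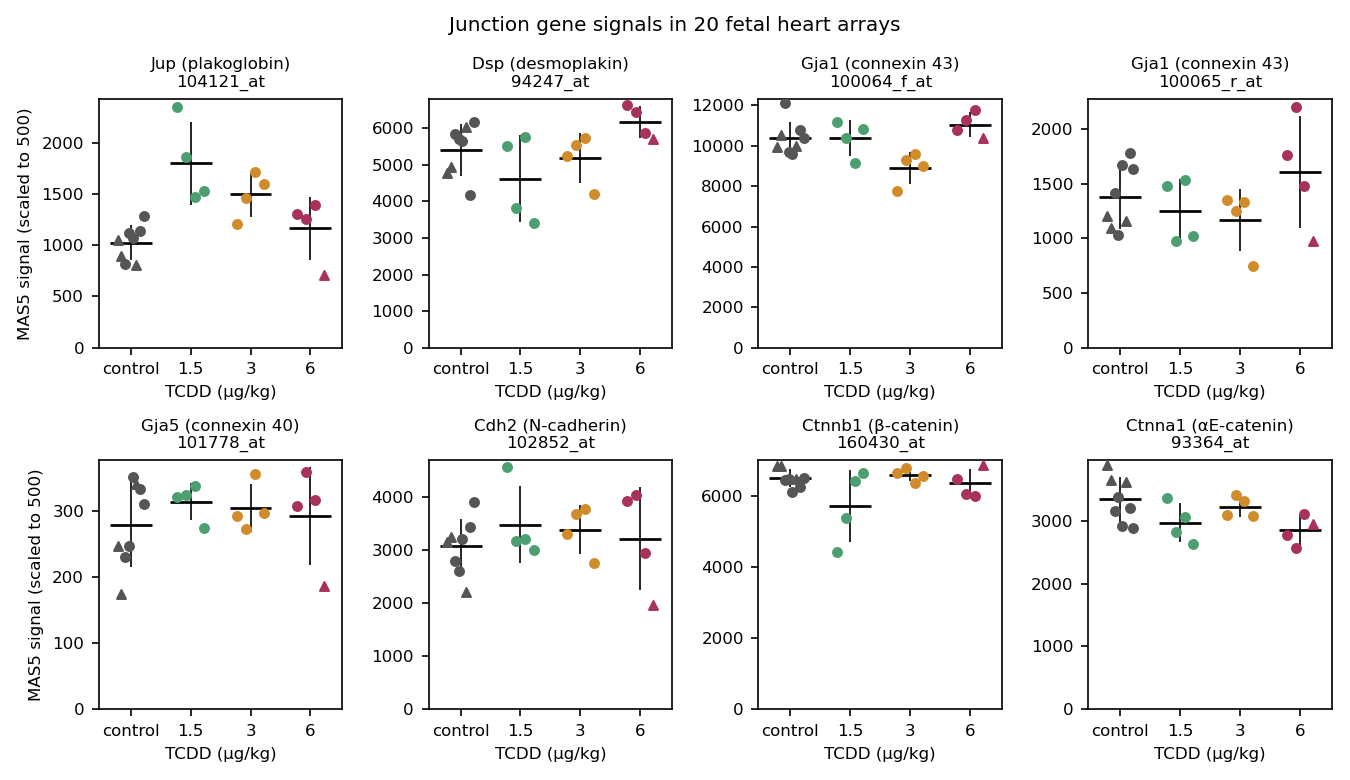
Signals (y axis, MAS5 signal scaled to a trimmed mean of 500, linear and starting at 0) of the 8 kept member probe sets in 20 arrays by TCDD dose in µg/kg (x axis), with group means and SD as bars. Triangles mark the 4 arrays whose β-actin 3′ to middle log2 ratio was 0.896 or more; all 4 Jup points at 1.5 µg/kg sit above the 8 controls, and the other members overlap the controls at that dose.

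The promoters of the genes are shown because AhR binds DNA whose core letters are GCGTG, and Jup was the 1 member called. RefSeq promoter entries were found for 5 of the 7 genes: Jup, Dsp, Gja1, Gja5 and Ctnnb1. The 250 bases before each start were searched for GCGTG on both strands, so that a match on the other strand reads CACGC, and 28.2% of 32851 promoters in the table held at least 1. Of the 5 genes, 3 held it: Dsp (58 bases before the start), Gja1 (97 bases) and Ctnnb1 (70 bases, for the first of its start sites). The percentage counts promoter entries, while the members are counted as genes, and Ctnnb1 has 2 entries. The match is a description of letters, not of binding, and its absence says only that these letters are not in that window. The following are given 5′ to 3′ along the gene, with the core in capitals: Jup at chr11:100397840-100398040 (minus strand, the 201 bases of its window outside the gene's span), Dsp at chr13:38151044-38151293 (plus strand) and Gja1 at chr10:56377050-56377299 (plus strand).
Jup: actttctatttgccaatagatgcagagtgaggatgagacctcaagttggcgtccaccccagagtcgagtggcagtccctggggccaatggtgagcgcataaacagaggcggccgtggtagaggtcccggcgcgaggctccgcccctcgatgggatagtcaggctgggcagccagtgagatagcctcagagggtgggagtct
Dsp: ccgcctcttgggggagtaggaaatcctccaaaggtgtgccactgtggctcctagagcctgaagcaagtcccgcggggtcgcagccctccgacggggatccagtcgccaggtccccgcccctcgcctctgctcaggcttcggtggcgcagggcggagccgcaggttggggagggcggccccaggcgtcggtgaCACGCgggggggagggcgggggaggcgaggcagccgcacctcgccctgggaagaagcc
Gja1: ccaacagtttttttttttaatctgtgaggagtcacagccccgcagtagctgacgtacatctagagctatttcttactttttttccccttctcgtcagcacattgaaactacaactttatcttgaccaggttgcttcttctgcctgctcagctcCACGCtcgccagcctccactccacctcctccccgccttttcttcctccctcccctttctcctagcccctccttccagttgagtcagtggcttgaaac
The Jup stretch above and the rest of its window held 0 matches, and so did that of Gja5.

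Desmoplakin, which links the desmosomal plaque to desmin filaments, was not called at any dose. Dsp (chromosome 13, 38151294 to 38198577) gave signals of 4167 at the lowest, 5677 at the median and 6167 at the highest control. At 1.5 µg/kg the arrays gave 5511, 3823, 5771 and 3401, at 3 µg/kg 5255, 5555, 5726 and 4192, and at 6 µg/kg 6644, 6458, 5873 and 5720.5. Arrays 2 and 4 at 1.5 µg/kg lay below all controls and arrays 1 and 2 at 6 µg/kg above all of them, and the groups overlapped at every dose. The log2 differences from controls were −0.25, −0.06 and 0.20 (SE 0.13, limma adjusted p = 0.437, 0.992 and 0.639), and the first was −0.11 without array 4 at 1.5 µg/kg. Its other probe set lay below the filter with signals of 3.3 to 31.5 in all arrays, and its exact permutation p was 0.275, 0.897 and 0.535 at the 3 doses.

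Cx43, the main gap junction protein of working heart muscle, has 2 probe sets for Gja1 (chromosome 10, 56377300 to 56390419), one with the suffix f, given where probes may match members of a sequence family, and one with the suffix r, given where the design rules were relaxed. In the f probe set the controls ran from 9603 through a median of 10175 to 12108. The arrays at 1.5 µg/kg gave 11197, 10402, 9127 and 10814, those at 3 µg/kg 7754, 9295, 9581 and 9010.5, and those at 6 µg/kg 10781, 11262, 11777 and 10369.6. All 4 arrays at 3 µg/kg lay below the 8 controls, while the groups overlapped at the other doses. The log2 difference at 3 µg/kg was −0.22 (SE 0.08, unadjusted p = 0.00756, limma adjusted p = 0.707), beside 0.00 at 1.5 µg/kg and 0.09 at 6 µg/kg.

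In the r probe set of Gja1, controls ran from 1030.4 through 1313 to 1779.8. The arrays gave 1477, 979, 1534 and 1017 at 1.5 µg/kg, 1347, 1254, 1328 and 749.5 at 3 µg/kg, and 1764, 2203, 1482 and 977 at 6 µg/kg. Array 4 was the lowest at both 3 and 6 µg/kg and lay below all controls there. The log2 differences were −0.13, −0.24 and 0.19 (SE 0.20, limma adjusted p = 0.817, 0.939 and 0.786). Without array 4 the second was −0.04, and without array 2 the third was 0.02. The 2 probe sets had the same sign of difference at each dose, though that at 1.5 µg/kg was 0.00 in the first and turned positive in it with quantile normalization (0.038).

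Cx40 is the gap junction protein of the atria and of the conduction system. Gja5 (chromosome 3, 97032402 to 97053634) gave signals of 174.9 at the lowest, 279 at the median and 353 at the highest control. The arrays gave 321, 325, 339 and 274 at 1.5 µg/kg, 292.5, 273, 357 and 297.5 at 3 µg/kg, and 309, 359.9, 318 and 187 at 6 µg/kg. Controls 1 to 4 (174.9 to 248) lay below controls 5 to 8 (311 to 353) without overlap, and the doses overlapped the controls as a whole. How many other probe sets split the controls this way was not counted. The log2 differences were 0.18, 0.13 and 0.06 (SE 0.16, limma adjusted p = 0.693, 0.966 and 0.933), and against controls 5 to 8 alone they turned to −0.08, −0.13 and −0.21.

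N-cadherin, the cadherin that bridges neighbouring heart muscle cells, lay slightly above controls on average at each dose, as Gja5 did, and was not called. Cdh2 (chromosome 18, 16588877 to 16809246) gave 2210.1 at the lowest, 3174 at the median and 3905 at the highest control. The arrays gave 4554, 3157, 3204 and 2988 at 1.5 µg/kg, 3297, 3674, 3771 and 2754 at 3 µg/kg, and 3921.5, 4025, 2932 and 1959.6 at 6 µg/kg. Array 1 at 1.5 µg/kg, which was also the highest of all arrays for Jup, and arrays 1 and 2 at 6 µg/kg lay above all controls. Array 4 at 6 µg/kg, the lowest for Jup, lay below all of them. The log2 differences were 0.18, 0.14 and 0.03 (SE 0.17, limma adjusted p = 0.703, 0.961 and 0.972), and the first was 0.04 without array 1 at 1.5 µg/kg. The groups overlapped at every dose.

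β-Catenin, the partner of N-cadherin at the adherens junction, was not called at any dose. Ctnnb1 (chromosome 9, 120933400 to 120960507) gave 6111 at the lowest, 6492.5 at the median and 6841 at the highest control. The arrays gave 4428, 5383.5, 6422 and 6648 at 1.5 µg/kg, 6642, 6797, 6364 and 6576 at 3 µg/kg, and 6493, 6056, 5999 and 6886 at 6 µg/kg. Arrays 1 and 2 at 1.5 µg/kg, the 2 highest for Jup, were the 2 lowest of all 20 for Ctnnb1, while arrays 3 and 4 lay within the control range. At 6 µg/kg arrays 2 and 3 lay below all controls and array 4 above them. The log2 difference at 1.5 µg/kg was −0.20 (SE 0.08, unadjusted p = 0.0241, limma adjusted p = 0.324), or −0.08 without array 1, and it was 0.02 and −0.03 at the other doses.

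αE-Catenin links β-catenin or plakoglobin to actin. Ctnna1 (chromosome 18, 35118902 to 35254776) gave 2889.6 at the lowest, 3291 at the median and 3896 at the highest control. The arrays gave 3366, 2819.6, 3067 and 2634 at 1.5 µg/kg, 3097, 3417, 3314 and 3072 at 3 µg/kg, and 2780.3, 2559, 3115 and 2946 at 6 µg/kg. Arrays 2 and 4 at 1.5 µg/kg and arrays 1 and 2 at 6 µg/kg lay below all controls, and the groups overlapped. The log2 differences were −0.17, −0.04 and −0.22 (SE 0.09, limma adjusted p = 0.451, 0.99 and 0.468). Its other probe set lay below the filter (6.8 to 86.7 in all arrays) with an exact permutation p of 0.129, 0.475 and 0.642.

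Over the 8 kept probe sets of the 7 genes, 3, 4 and 6 lay above controls at 1.5, 3 and 6 µg/kg, with median log2 differences of −0.07, −0.01 and 0.07. Over all kept probe sets the medians were 0.01, 0.00 and 0.00, and 51.9%, 51.2% and 49.7% lay above controls. The joint F test of the 3 doses called 0.185% of all probe sets and no member, with Jup nearest to the threshold (limma adjusted p = 0.0774, unadjusted p = 0.000325). That test called Jup without array 4 at 6 µg/kg. A linear trend over dose called 0.0618% of probe sets and no member, and the Jup slope was 0.02 log2 units per µg/kg (limma adjusted p = 0.89), which turned to −0.14 over the TCDD doses alone.

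Between doses no member was called, where limma called 0% of probe sets between 3 and 1.5 µg/kg, 0.346% between 6 and 1.5 µg/kg and 0.0371% between 6 and 3 µg/kg. Jup was lower at 6 than at 1.5 µg/kg by a log2 difference of −0.63 (SE 0.19, unadjusted p = 0.00265, limma adjusted p = 0.107) and than at 3 µg/kg by −0.38 (adjusted p = 0.431). Both values rest in part on array 4 at 6 µg/kg, without which they were −0.42 and −0.17. Dsp differed the other way, by 0.45 between 6 and 1.5 µg/kg (adjusted p = 0.149), and the f probe set of Gja1 by 0.31 between 6 and 3 µg/kg (adjusted p = 0.176).

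**Figure D2:**
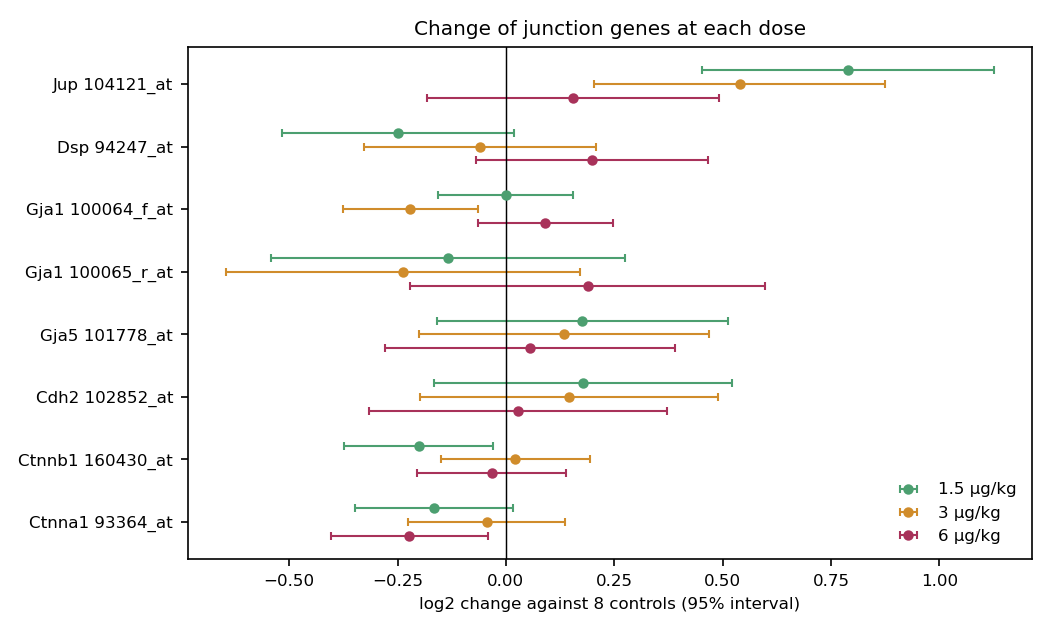
Log2 change against the 8 controls (x axis, log2(signal + 32) scale) of the 8 kept member probe sets at 1.5, 3 and 6 µg/kg TCDD, with limma 95% intervals as bars. The Jup points at 1.5 and 3 µg/kg, 0.79 and 0.54, lie to the right of every other member's point.

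Whether Jup changed differently from the others was tested on the difference itself, the Jup change minus the other change. Every difference holds the same Jup values, so the 8096 fits are not independent and their p-values may be too small. At 1.5 µg/kg Jup differed from each of the other 7 probe sets in the limma fit over all probe sets: by 1.04 log2 units from Dsp, 0.99 from Ctnnb1, 0.95 from Ctnna1, 0.92 and 0.79 from the r and f probe sets of Gja1, and 0.61 from both Gja5 and Cdh2 (highest adjusted p = 0.00853). The difference from Gja5 lost its call against controls 1 to 4 alone and with the replicate block (0.42, adjusted p = 0.142 and 0.181), and without array 1 at 1.5 µg/kg (0.49, adjusted p = 0.0527). That count is near the background, because Jup differed from 88.6% of all 8096 other probe sets at that dose. At 3 µg/kg Jup differed from 5 of the 7, beside 50.5% of all probe sets. The 2 that did not pass there were Gja5 (0.41, adjusted p = 0.0886) and Cdh2 (0.39, adjusted p = 0.0722). The count at 3 µg/kg fell to 2 without control 2 and to 0 without control 3 or 6 or array 2, 3 or 4 at 3 µg/kg. At 6 µg/kg Jup differed from 0 of the 7 (limma, 0.0618% of all), with differences of −0.04 to 0.38, of which none had an unadjusted p under 0.05 among the 7.

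Among arrays of the same group, Jup and N-cadherin deviated together. Over the deviations of 20 arrays from their group means, Pearson's r of Cdh2 with Jup was 0.73 (permutation p = 0.00448) and Spearman's rho 0.68 (permutation p = 0.00517). The Cdh2 slope on Jup was 0.76 log2 units per log2 unit of Jup (SE 0.17), and Cdh2 was the 1 of 7 member probe sets associated with Jup in the limma fit (adjusted p = 0.0463 over 8096 probe sets), beside 0.568% of all probe sets in either direction and 0.494% with a positive slope. By r, Cdh2 ranked 47th of 8096. These values describe arrays, which can share RNA quality and scaling, and a link between the genes was not tested.

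The Cdh2 call stood near the threshold. Without the 2 arrays farthest from the Jup median, array 4 at 6 µg/kg and control 6, r was 0.53. Within the 8 controls r was 0.70 (exact permutation p = 0.0525, over 40320 orders), and over the 12 TCDD arrays it was 0.75. The call was lost without control 5, 6, 7 or 8, array 1 or 4 at 1.5 µg/kg, array 2 or 3 at 3 µg/kg, or array 1, 2 or 4 at 6 µg/kg (adjusted p 0.0518 to 0.56). The slope was 0.70 to 0.76 in 10 of these 11 fits and 0.59 without array 4 at 6 µg/kg. The call was also lost in 9 of 13 other settings, over which the slope was 0.46 to 0.86 (highest adjusted p = 0.771). The slope was 0.46 with the replicate block and 0.52 with the 3′ to 5′ ratio as a covariate (adjusted p = 0.452). With the 4 high β-actin arrays left out it was 0.52 (adjusted p = 0.686).

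Of the other 6 relations with Jup, none passed the limma fit, in which 7 relations with members were read. Gja5 had r = 0.55 (rho 0.49, permutation p = 0.038 and 0.0427, limma adjusted p = 0.242) and 0.54 without the 2 farthest arrays. Ctnnb1 ran the other way, with r = −0.63 (rho −0.58, permutation p = 0.0035 and 0.0159, limma adjusted p = 0.21), −0.67 without the 2 farthest arrays, −0.23 within the controls and −0.73 over the TCDD arrays. For Gja1 r was 0.33 in the f and 0.41 in the r probe set (permutation p = 0.16 and 0.142), for Dsp 0.10 (0.686) and for Ctnna1 −0.06 (0.827).

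The β-actin ratio was set beside the 8 member probe sets in the same way, 8 relations whose p-values are not adjusted. Its r over the deviations was −0.64 with Gja5 (rho −0.46, permutation p = 0.0214 and 0.0901), −0.55 with the r probe set of Gja1 (rho −0.51, 0.013 and 0.0281), 0.54 with Ctnna1 (rho 0.47, 0.0403 and 0.0741) and 0.30 with Ctnnb1 (rho 0.46, 0.0416 and 0.0325). Without the 2 arrays farthest from the median of the ratio, controls 1 and 2, these r were −0.47, −0.57, 0.33 and 0.22. For Jup r was −0.39 (permutation p = 0.106), for Cdh2 −0.30 (0.257), for Dsp −0.23 (0.285) and for the f probe set of Gja1 −0.07 (0.781). Without controls 1 and 2 these r were −0.48, −0.53, −0.10 and −0.07. Over the 12 TCDD arrays they were −0.57, −0.68, −0.36 and 0.03. Within the 8 controls r was 0.87 with Ctnnb1 and 0.79 with Ctnna1 (exact permutation p = 0.00248 and 0.0254). For all kept probe sets over the 20 arrays, the quartiles of r were −0.31 and 0.26, and 17.8% lay at or below Jup. The part of RNA quality in the relations among the members was not tested beyond the fits given here.

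**Figure D3:**
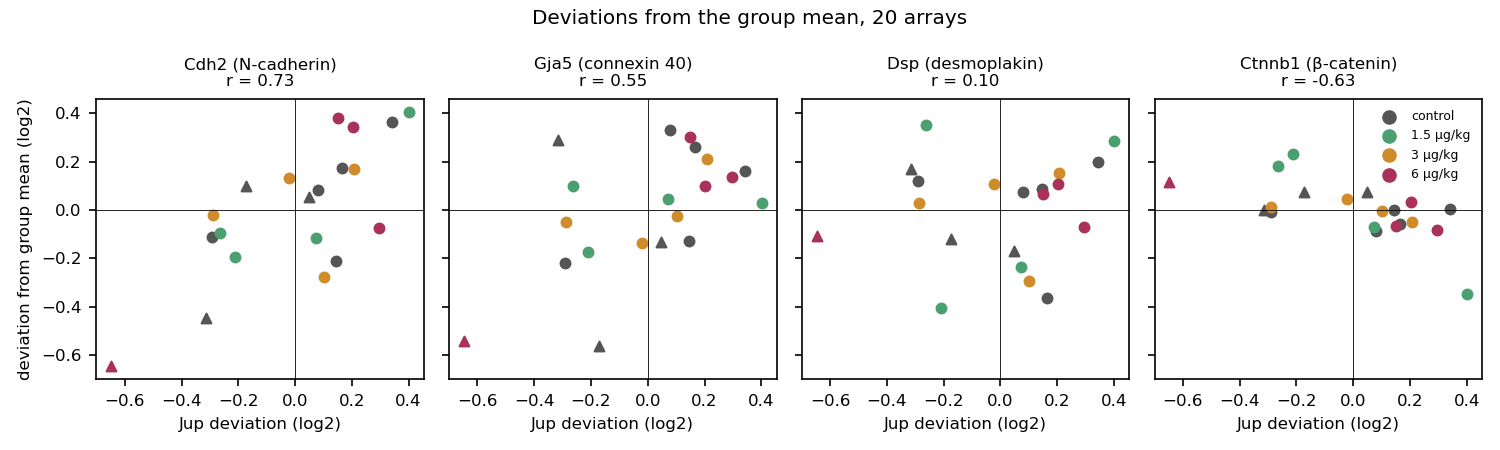
Deviation from the group mean in log2 units of Jup (x axis) against that of Cdh2, Gja5, Dsp and Ctnnb1 (y axes), 1 point per array for 20 arrays, coloured by dose, with triangles for the 4 arrays of high β-actin ratio. Cdh2 rises with Jup (r = 0.73), Ctnnb1 runs the other way (r = −0.63), and the array at the far left in each panel is array 4 at 6 µg/kg.

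The 5 probe sets whose deviations were most like those of Jup over the 20 arrays were Eif4ebp2 (r = 0.88), Maz (0.86), Smarcd1 (0.85), Tcf4 (0.85) and Zdhhc9 (0.83), and none is a junction gene of the lists. The 3 with the lowest r were Tmem165 (−0.79), Acaa1a (−0.79) and Tmem170 (−0.79). At 1.5 µg/kg the log2 differences of the 5 were 0.31, 0.48, 0.27, −0.03 and 0.32.

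The wider junction lists held 141 genes, of which 106 were on the array and 81 passed the filter, each read in its brightest probe set. At 1.5 µg/kg 50 lay above controls and 31 below, beside 51.9% of all kept probe sets above, and Jup was the 1 called. By size of rise Jup ranked 2nd of the 81, after Lrp5 of the β-catenin signalling list (0.85, SE 0.37, limma adjusted p = 0.348). Outside that ranking, the less bright probe set of Ank3, a disc and costamere linker, rose by 0.78 (limma adjusted p = 0.0879). The brightest probe set of Ank3 gave −0.14. At 3 and 6 µg/kg limma called 0, while 5 and 6 genes had an unadjusted p under 0.05. The median log2 difference of the 81 was 0.05, 0.02 and 0.02, and the share with an unadjusted p under 0.05 was 17.3%, 6.17% and 7.41%, beside 12.6%, 5.72% and 9.15% of all kept probe sets. Of 80 junction genes other than Jup, 2 were associated with Jup within groups, Cdh2 and Tcf7l1, a nuclear partner of β-catenin (r = 0.81, limma adjusted p = 0.0233), whose other kept probe set gave r = 0.03.

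In the desmosome list 7 of 13 genes were measured, and 5 of the 7 lay below controls at 1.5 µg/kg (median −0.08), where Jup was the 1 called. The desmosomal plaque protein plakophilin 2 (Pkp2) differed by −0.15 (limma adjusted p = 0.413) in its brightest probe set and by 0.09 in the other. The desmosome-associated membrane protein Perp differed by −0.15 (adjusted p = 0.521) and the plakophilin relative Pkp4 by −0.08 (adjusted p = 0.682). At 3 and 6 µg/kg the medians were −0.05 and 0.09.

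In the adherens junction list 20 of 28 genes were measured, 13 of them above controls at each dose (medians 0.07, 0.04 and 0.04), with Jup the 1 called at 1.5 µg/kg. p120-catenin (Ctnnd1), which holds cadherins at the membrane, differed by 0.35, 0.24 and 0.26 (SE 0.11, limma adjusted p = 0.188, 0.854 and 0.513), and by 0.21, 0.11 and 0.00 in its other probe set. P-cadherin (Cdh3) differed by 0.35 at 1.5 µg/kg (adjusted p = 0.24) and by 0.04 in its other probe set. The actin crosslinker Actn1 differed by 0.18 there (adjusted p = 0.276), and by 0.10 and 0.72 in its other 2 probe sets (adjusted p = 0.907 and 0.167).

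In the gap junction list 6 of 18 genes were measured and 0 were called by limma. The vascular connexin Cx37 (Gja4) differed by −0.62 at 6 µg/kg (adjusted p = 0.513), which was −0.21 without array 1 at that dose. Cx45 (Gjc1) differed by −0.29 at 6 µg/kg (adjusted p = 0.63), which was −0.13 without the same array and −0.48 without array 4, and Gja3 by 0.34 at 1.5 µg/kg (adjusted p = 0.623). Medians were 0.03, 0.05 and 0.04. In the tight junction list 5 of 22 were measured and 0 called (medians −0.04, 0.04 and 0.00). The endothelial claudin Cldn5 differed by −0.32 at 6 µg/kg (unadjusted p = 0.00206, adjusted p = 0.27), Cldn3 by 0.33 at 3 µg/kg (adjusted p = 0.887) and the adhesion molecule F11r by 0.18 at 3 µg/kg (adjusted p = 0.895).

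Among linkers of the disc and the costamere, 25 of 37 genes were measured and 0 called (medians 0.01, 0.02 and 0.01). Dystrophin (Dmd), which ties the cytoskeleton to the membrane, differed by −0.44, −0.49 and 0.16 (SE 0.19, limma adjusted p = 0.335, 0.73 and 0.799). Lims1, of the integrin-linked kinase complex, differed by −0.24 at 1.5 µg/kg (adjusted p = 0.306) and talin (Tln1) by 0.23 (adjusted p = 0.374), with 0.05 and 0.38 in the other Tln1 probe sets.

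Of the β-catenin signalling list 21 of 26 genes were measured and 0 called by limma. From the low to the high dose 18, 12 and 10 lay above controls, beside 51.9%, 51.2% and 49.7% of all kept probe sets. The median log2 differences of the list were 0.16, 0.08 and −0.04. The nuclear partner Lef1 differed by 0.36, 0.24 and 0.31 (SE 0.15, adjusted p = 0.313, 0.895 and 0.537). Ctnnbip1, an inhibitor of β-catenin, differed by 0.30 at 1.5 µg/kg (adjusted p = 0.317), and Csnk1a1, a kinase of the β-catenin destruction complex, by −0.20 (adjusted p = 0.328) and by −0.14 in its other probe set.

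**Figure D4:**
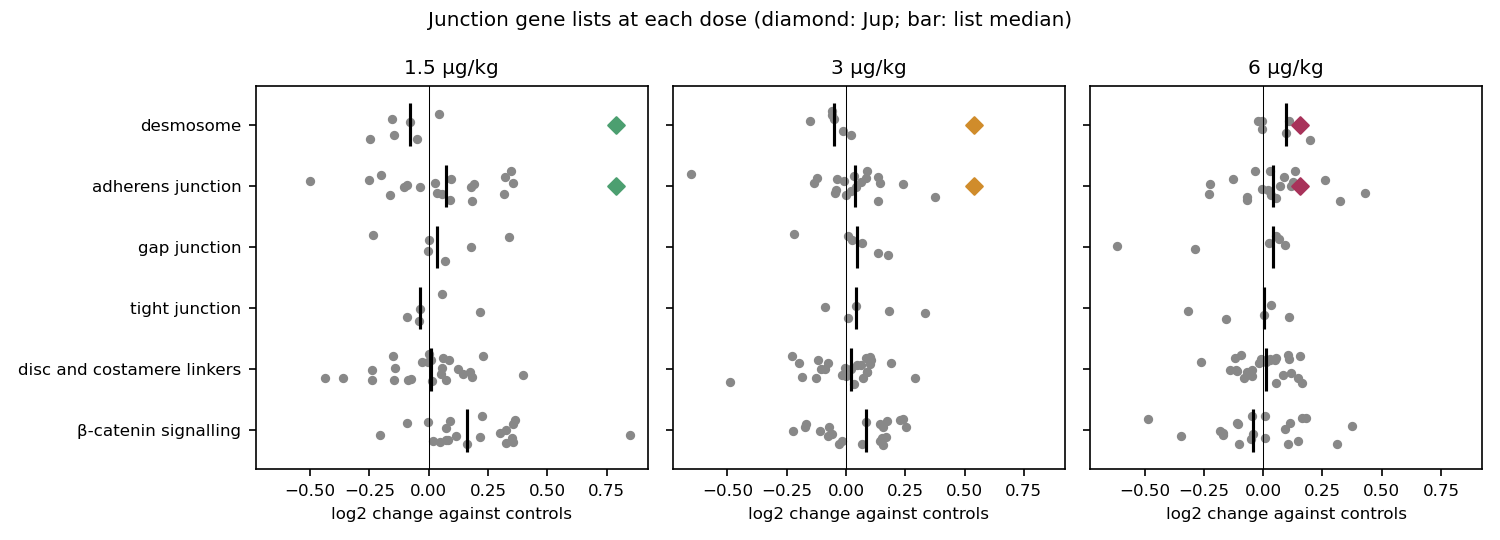
Log2 change against controls (x axis) of each measured gene of 6 junction lists at 1.5, 3 and 6 µg/kg TCDD (panels), with list medians as bars and Jup as a diamond in the 2 lists that hold it. Jup, at 0.79, is the 1 gene called at 1.5 µg/kg, and 18 of 21 β-catenin signalling genes lie above 0 there, beside 51.9% of all kept probe sets.

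Markers of other cells that also use plakoglobin were read beside it. Counts above controls, for all marker lists, stand beside 51.9%, 51.2% and 49.7% of all kept probe sets at 1.5, 3 and 6 µg/kg. Of 7 measured mesothelial and epicardial markers, 7, 7 and 2 lay above controls from the low to the high dose, with none called and median log2 differences of 0.22, 0.30 and −0.15. Their summed signal was 2767 to 4229 in controls, and then 3580.3 to 4435, 3441 to 5349.6 and 3266 to 3777 by rising dose. Of 8 measured surface and lung epithelial markers, 8, 8 and 4 lay above controls, none called, with a summed signal of 1619 to 4394 in controls, and then 1969 to 5915, 1707 to 6755 and 1775 to 5466. The epithelial markers Epcam, Krt5, Krt14 and Sftpd were below the filter. Within groups the r of these scores with Jup was 0.34 and 0.10, and over all 10 marker lists it ran from −0.12 for smooth muscle to 0.41 for leukocytes. Their part in the Jup result was not tested.

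Of 10 measured leukocyte markers, 10 lay above controls at each dose, and Cd74, which belongs to antigen presentation, was called at 1.5 and 6 µg/kg (log2 changes 0.73 and 0.92, limma adjusted p = 0.0274 and 0.00285). Their summed signal was 2664 to 3265 in controls, and then 3674 to 4037, 3688 to 4229 and 3902 to 4301, and Ptprc and Adgre1 were below the filter. Of 9 cardiomyocyte markers, 4, 0 and 7 lay above controls, of 9 endothelial markers 4 at each dose, of 7 fibroblast markers 6, 6 and 7, of 5 smooth muscle markers 4, 3 and 0, of 4 erythroid markers 4, 3 and 4, of 3 atrial markers 0, 1 and 1, and of 2 ventricular markers 1, 0 and 2. None of these was called. Their part in the member values was not tested either.

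**Figure D5:**
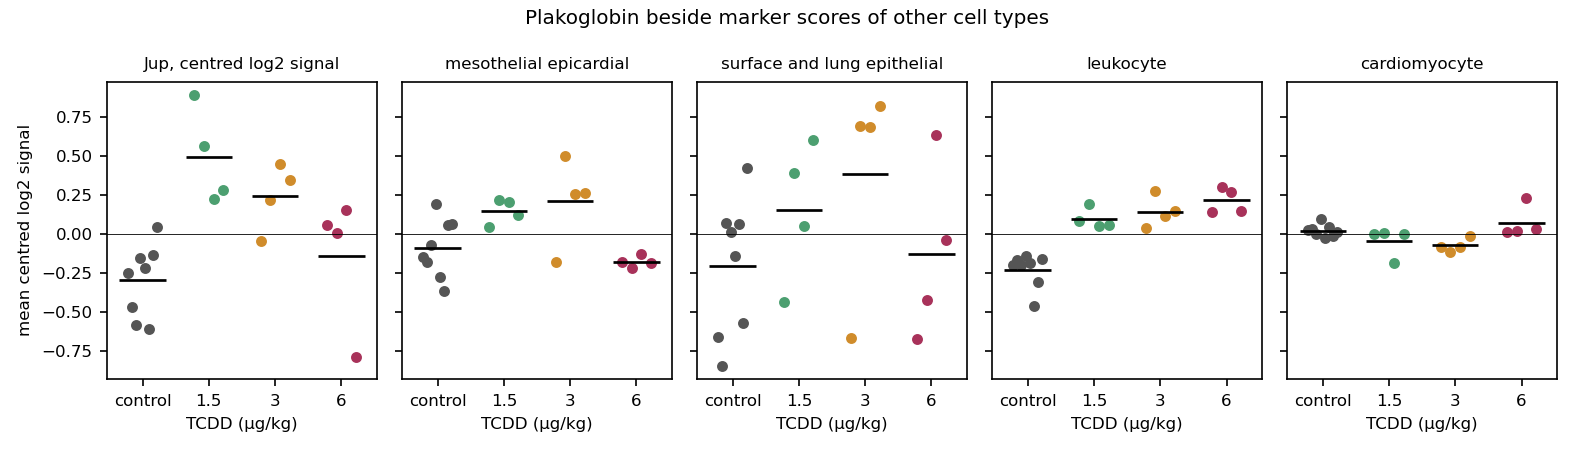
Jup log2 signal centred on its mean over all arrays, and the mean centred log2 signal of 4 marker lists (y axis), for 20 arrays by TCDD dose in µg/kg (x axis), with group means as bars. The mean mesothelial and epicardial score and the mean surface and lung epithelial score, like Jup, were higher at 1.5 and 3 µg/kg than at 6 µg/kg. Unlike Jup, both were highest at 3 µg/kg. At 6 µg/kg the mesothelial and epicardial mean lay below that of controls (−0.18 against −0.09). The leukocyte score was above all controls in every TCDD array.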

How the data were processed

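Affymetrix mouse arrays measured total RNA of whole hearts of mouse fetuses, 8 controls and 4 at each TCDD dose. The authors deposited 1 signal intensity per probe set and array, made with MAS5 per the submitters' processing notes (version and settings not given in the sources used here). The trimmed means of the deposited intensities (2% trimmed at each end) were 500.28 to 500.341, and each array was rescaled to 500. Of 12488 probe sets, 66 controls were set aside, and probe sets with at least 4 arrays at or above their own 40th percentile were kept (8097 of 12422). Symbols came from the platform annotation and locations from the RefSeq table of GRCm38.p6. Probe locations were not used.

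Values were log2(signal + 32), so fold changes of dim genes are understated. Models were fitted with limma 3.58.1 in R 4.3.3 (lmFit, contrasts.fit, eBayes with an intensity trend) over all 20 arrays, two-sided, with Benjamini-Hochberg adjustment over all probe sets at a threshold of 0.05. A probe set past that threshold is said to be called. The same model was fitted to the Jup log2 value minus that of every other probe set, and with the Jup value as a term beside the groups. Correlations are of deviations from group means, with 100000 permutations of arrays within groups (two-sided), or all orders within the controls. For member probe sets under the filter, an exact permutation test (two-sided, 495 splits) set each dose against the controls. The fits were run on simulated arrays with independent noise for each probe set, which does not test them under deviations that probe sets share. Where a gene has several probe sets, lists use the brightest over all arrays. The members and lists were chosen with earlier results of these data known. The named list genes are up to 3 per list with the smallest p over the doses, besides those called or associated with Jup. Lrp5 and Ank3 were named for the size of a rise. The list symbol Tcf3 now denotes the gene of E2A, not a partner of β-catenin.

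Samples were grouped by title. Same-numbered arrays did not deviate together: of 24 pairs, 5 correlated above 0.1 (range −0.22 to 0.21). No 2 arrays held identical values. Alternatives were the signals as deposited, quantile normalization, pseudocounts of 1 and 100, no filter or the 60th percentile, either set of 4 controls, a replicate block, no intensity trend, only the groups compared, a 3′ to 5′ ratio as a covariate, other dose scales, and leaving out each array. The block groups same-numbered arrays. Numbers above 4 occur only among the controls, so with the block the dose differences rest on controls 1 to 4 and equal those against these controls alone. The block and controls 1 to 4 alone are therefore not separate checks of the dose differences. Leaving out 4 arrays by the β-actin ratio, and that ratio as a covariate, were added after the data were seen. The number of arrays limits the precision. Plots were drawn with matplotlib 3.10.9.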

Additional observations from a re-analysis of the deposited data

Results flagged for a closer look

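In 3 of 32 sets of 4 or 8 arrays tested for a single distant array, one stood apart from the rest of its group by Dixon's test, and chance alone gives about 1 in 20. Jup was at 708.9 in array 4 at 6 µg/kg, where the other arrays of that dose lay between 1255.5 and 1392. The r probe set of Gja1 was at 749.5 in array 4 at 3 µg/kg, where the others lay between 1254 and 1347. Cdh2 was at 4554 in array 1 at 1.5 µg/kg, where the others lay between 2988 and 3204. Array 4 at 6 µg/kg is 1 of the 4 arrays with a high β-actin 3′ to middle ratio, and the other 2 arrays named here are not.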

How the results depend on the processing

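The log2 difference of Jup stayed positive at each dose under all 14 other settings and all 20 fits without 1 array. The count of members called at 1.5 µg/kg fell from 1 to 0 with no filter, with controls 1 to 4 alone, with controls 5 to 8 alone, with the replicate block (Jup log2 change 0.86, adjusted p = 0.141), with no intensity trend and with the β-actin ratio as a covariate, and ranged from 0 to 1 without 1 array. The joint test called 1 member with the 3′ to 5′ ratio as a covariate (0 to 1 without 1 array). Other junction genes called rose from 0 to 1 at 1.5 and at 3 µg/kg against controls 5 to 8 alone, to 1 at 1.5 µg/kg with the 3′ to 5′ ratio, and to 2 at 6 µg/kg against controls 1 to 4 alone and with the replicate block. Probe sets that differed from Jup at 3 µg/kg went from 5 to 0 against controls 5 to 8 and with the replicate block, 3 without the 4 high β-actin arrays and 1 with that ratio as a covariate (0 to 6 without 1 array).

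The member count associated with Jup went from 1 to 0 with quantile normalization, a pseudocount of 100, no filter, controls 1 to 4 alone, the replicate block, no intensity trend, the 3′ to 5′ ratio, the β-actin ratio and without its 4 high arrays (0 to 1 without 1 array). Other junction genes associated with Jup went from 2 to 1 with quantile normalization, a pseudocount of 100, no filter and no intensity trend, and to 0 in the remaining 5 of those settings (0 to 3 without 1 array). The same-numbered arrays were not paired by the check. With the block the Jup log2 change at 1.5 µg/kg was 0.86, against 0.79 without it. Controls 1 to 4 alone gave the same 0.86, because the block leaves the dose differences to rest on those controls. The Cdh2 slope on Jup fell from 0.76 to 0.46 with the block (limma adjusted p = 0.771).

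Signs turned for small differences. The f probe set of Gja1 at 1.5 µg/kg, at 0.00, went to 0.038 with quantile normalization, 0.025 against controls 5 to 8 and 0.031 with the 3′ to 5′ ratio (−0.038 to 0.060 without 1 array). The r probe set of Gja1 went to 0.055 at 1.5 µg/kg against controls 1 to 4 and with the block, to 0.22 with the 3′ to 5′ ratio and to −0.000585 at 6 µg/kg against controls 5 to 8. Against controls 5 to 8, Gja5 went to −0.084, −0.13 and −0.21 at the 3 doses, Ctnna1 to 0.035 at 3 µg/kg, Cdh2 to −0.015 and Ctnnb1 to 0.0018 at 6 µg/kg, and the Jup dose slope to −0.017 (−0.14 over the TCDD doses alone). Ctnnb1 at 3 µg/kg went to −0.014 against controls 1 to 4 and with the block, and to −0.00666 with the 3′ to 5′ ratio. Without the 4 high β-actin arrays Ctnna1 at 3 µg/kg went to 0.053. With that ratio as a covariate Ctnna1 went to 0.026 and Gja5 to −0.032 at 3 µg/kg, and Gja5 to −0.014 and Cdh2 to −0.0070 at 6 µg/kg. Without 1 array, Dsp at 3 µg/kg ran from −0.11 to 0.038, Gja5 at 6 µg/kg from −0.045 to 0.24 and Cdh2 at 6 µg/kg from −0.098 to 0.24.

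The Ctnna1 slope on Jup turned from −0.026 to 0.11 against controls 1 to 4, 0.061 with the block, 0.064 with the 3′ to 5′ ratio, 0.16 without the 4 arrays and 0.087 with the β-actin ratio (−0.12 to 0.034 without 1 array). The Dsp slope turned to −0.073 with the 3′ to 5′ ratio (−0.035 to 0.18 without 1 array) and that of the r probe set of Gja1 to −0.036 without the 4 arrays. The cause of these shifts was not tested.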
